A study of Rattus norvegicus with 9 samples.

Results

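H9c2 cells given control water (CW) were compared with untreated H9c2 cells (Control) across all expressed genes, to measure how far the groups differed. The members were the 3 libraries titled CW and the 3 titled Control, 6 of the 9 libraries of the series, and each gene's reads were summed over its RefSeq transcripts. H9c2(2-1) is an established line derived from embryonic heart tissue of the BD1X rat and labelled as wild-type myoblast. All groups were kept in DMEM with fetal bovine serum and antibiotics. CW cells received control water diluted to 0.01 over 72 h, freshly prepared each 24 h, and Control cells had normal growth medium only. The labels state no culture time or medium renewal for Control, so effects of the water and of handling cannot be told apart. The 3 libraries left out of the contrast came from cells given energized structured water (ESW) by the same schedule. They entered the fit only to share in the estimate of the spread, and their values are set beside those of CW. What control water contained is not stated in the labels, H9c2 is a single line, and the labels do not say that replicates were separate cultures. The p-values therefore speak only of the scatter among these libraries, which could be of technical origin.

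A vehicle control carries everything of a treatment except its active component. Added water lowers the concentration of medium salts and nutrients slightly, and animal cells answer larger osmotic changes through aquaporins, ion and osmolyte transporters and the transcription factor NFAT5. H9c2 cells divide as myoblasts in serum and express muscle, fibroblast and cytoskeletal genes together. Ribosomal RNA, which forms most of a cell's RNA, and 7SL RNA, the RNA core of the signal recognition particle, carry no poly(A) tail, so their share of a library depends on how the RNA was prepared as well as on the cells.

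The 6 libraries held between 26748673 and 48574618 estimated reads, and CW replicate 1 was the shallowest. Each had between 13961 and 15054 genes with at least 10 reads, and 14706 genes were tested. Pairwise correlations of log2 CPM, the reads of a gene scaled to the library total, ran from 0.9906 to 0.9913 within CW, from 0.9915 to 0.9930 within Control and from 0.9894 to 0.9923 between the groups. On the first principal component, with 26.6% of the variance, the CW libraries lay at -9.17, -10.4 and -17.1, Control replicates 2 and 3 at 4.19 and 1.25, and Control replicate 1 apart at 31.2. The label was checked against markers. Of 17 myoblast markers, 8 lay under 1 CPM in every library, among them Myf5, Pax7 and Ckm, while Myh1 and Myod1 were present. All 17 summed to 93.4 to 99.0 CPM in Control and 95.7 to 103 CPM in CW. Of 14 cardiomyocyte markers, 9 lay under 1 CPM in every library, among them Nppa, Nppb and Nkx2-5, and Tnnt2, Myom1, Pln and Gata4 were present (sums of 85.4 to 87.8 and 89.4 to 97.1 CPM). Smooth muscle markers summed to 12505 to 12755 CPM in Control and 11867 to 12707 CPM in CW, and fibroblast markers to 78220 to 83468 and 79393 to 83383 CPM. Of the markers of other lineages, 11 of 12 blood, 8 of 10 endothelial, 8 of 9 epithelial and 6 of 6 adipocyte genes lay under 1 CPM in every library, and no marker of any type was called.

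Few genes were called between control water and untreated cells, and most of their differences were small. The edgeR quasi-likelihood test called 26 of 14706 genes at an adjusted p under 0.05 (0.177%). Of these, 4 were higher in CW (0.0272%) and 22 lower (0.15%). The higher genes were 2 ribosomal RNA genes, the 7SL RNA gene Rn7sl1 and a long non-coding RNA (lncRNA). The lower ones were 21 protein-coding genes and 1 lncRNA, among them Tceal8, Lypla1, Sh3bgrl1, Cbfb and Cdkn1b. The median log2 fold change of the lower genes was -0.28, and 20 of the 22 lay between -0.5 and 0. Only 3 called genes (0.0204%) reached an absolute log2 fold change of 1. Over all genes tested the median was -0.0004 and the median absolute value 0.071. The count rested on single libraries: it was 5 without CW replicate 3, 11 without CW replicate 2, 14 without CW replicate 1, and, for the untreated cells, 13 without replicate 2, 17 without replicate 1 and 51 without replicate 3 of Control. DESeq2 called 71 genes, and 1 was called with effective length offsets, described further on. LOC120093067 was called under each of 19 alternative settings, Tceal8 and Lypla1 under 17, Ids, Rnf138, Mzt1 and Rn7sl1 under 7 or fewer, and LOC108350029 under 4 of the 17 that gave it a value.

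**Figure D1:**
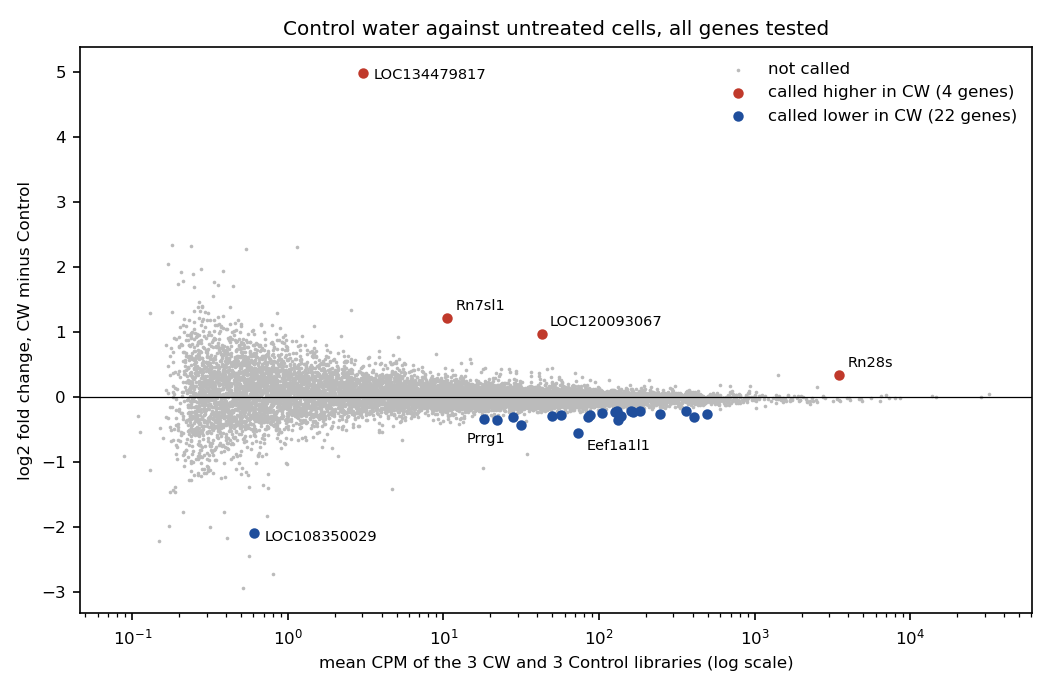
Log2 fold change of CW minus Control (vertical axis) against the mean CPM of the 6 libraries (horizontal axis, log scale) for the 14706 genes tested. Grey points were not called, red points are the 4 genes called higher in CW and blue points the 22 called lower; most blue points lie close to the horizontal line at 0.

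The 95% intervals of the main fit describe single genes by the scatter among these libraries only. They take no account of the shift in effective length described further on, so they do not bound an effect of the water. Of 12211 genes that averaged 1 CPM or more, 11086 (90.8%) had a 95% interval that lay within a 1.5-fold change in either direction. Of 2495 genes under 1 CPM, 0 did. At an unadjusted p under 0.05 there were 1452 genes (9.87%), 680 higher (4.62%) and 772 lower (5.25%). The 3 CW libraries did not overlap the 3 Control libraries for 2161 genes (14.7%), higher in CW for 1049 (7.13%) and lower for 1112 (7.56%). All 26 called genes were among these. For a gene with no group difference, such a separation of 3 against 3 libraries has a probability of 0.1. From the same fit, with the same Control libraries, ESW differed from Control in 1183 genes (8.04%) and from CW in 1197 (8.14%).

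Of the 4 higher genes, the ribosomal RNA gene LOC120093067 had the smallest p. Genes with systematic names are left out by the naming rule, so it and the others of that kind were named after their values were seen. LOC120093067 was at 24.6, 27.6 and 34.3 CPM in Control and at 51.3, 57.6 and 61.1 CPM in CW. The groups were well separated, 0.97 apart on the log2 scale (SE 0.12, adjusted p = 0.0014). Its ESW libraries lay between, at 49.9, 31.3 and 39.0 CPM. Rn28s, the 28S ribosomal RNA, was at 2992, 3023 and 3264 CPM in Control and at 3838, 3807 and 4073 CPM in CW, a rise of 1.26-fold (log2 fold change 0.34, SE 0.05, adjusted p = 0.0067). All 3 CW libraries lay above all Control libraries, and without CW replicate 3 the adjusted p was 0.109.

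The remaining 4 tested ribosomal RNA genes were not called, and all 6 had log2 fold changes above 0. Rn5-8s had a value of 0.92 (adjusted p = 0.257), LOC120099695 0.35 (adjusted p = 0.0868), LOC120102105 0.27 (adjusted p = 0.121) and Rn45s, the precursor transcript, 0.08 (adjusted p = 0.871), all by edgeR. These genes are near-identical copies or parts of one another, so the division of reads among them is uncertain. Taken as one quantity, ribosomal RNA genes held 0.452%, 0.442% and 0.491% of reads in Control and 0.582%, 0.562% and 0.623% in CW. The groups did not overlap, and the two-sided exact permutation test gave p = 0.1, the smallest value that 3 against 3 libraries allow (adjusted over 5 shares, 0.167). The ESW share, 0.460%, 0.508% and 0.476%, lay nearer to Control.

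Rn7sl1 was at 5.96, 7.08 and 5.85 CPM in Control and at 23.1, 8.43 and 13.01 CPM in CW. The CW libraries were all higher but spread widely, and the log2 fold change was 1.21 (SE 0.23, adjusted p = 0.0315). Without CW replicate 1, the highest, it was 0.77 with an adjusted p of 0.0758 in edgeR. The lncRNA LOC134479817 had 0, 22 and 0 reads in Control, 228, 91 and 239 reads in CW and 0 in each ESW library. It was close to absent outside CW, and the edgeR test gave an adjusted p of 0.0032 (DESeq2 0.623, limma-voom 0.0726). Its fitted fold change depends on the prior count and is not given. Between ESW and CW, Rn28s, Rn7sl1 and LOC134479817 differed too by edgeR (adjusted p = 0.0092, 0.0105 and 0.0004). These genes were chosen by their CW values, which that test reuses.

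As a class, lncRNAs had a median log2 fold change of 0.10 over 1708 genes, of which 1 was called higher and 1 lower. At an unadjusted p under 0.05, 112 were higher and 24 lower (6.56% and 1.41%, against 4.62% and 5.25% of all genes tested), and 62.4% were above 0, against 49.8% of all genes and 57.4% of genes under 1 CPM. The 12914 protein-coding genes had a median of -0.004, with 0 called higher and 21 called lower. The share of reads in lncRNA genes was 0.773%, 0.824% and 0.877% in Control and 0.849%, 0.872% and 0.878% in CW. These ranges overlapped (exact permutation p = 0.3, two-sided, adjusted 0.375). Protein-coding genes held 98.7%, 98.6% and 98.5% of reads in Control and 98.4% in each CW library (exact permutation p = 0.1, adjusted 0.167).

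**Figure D2:**
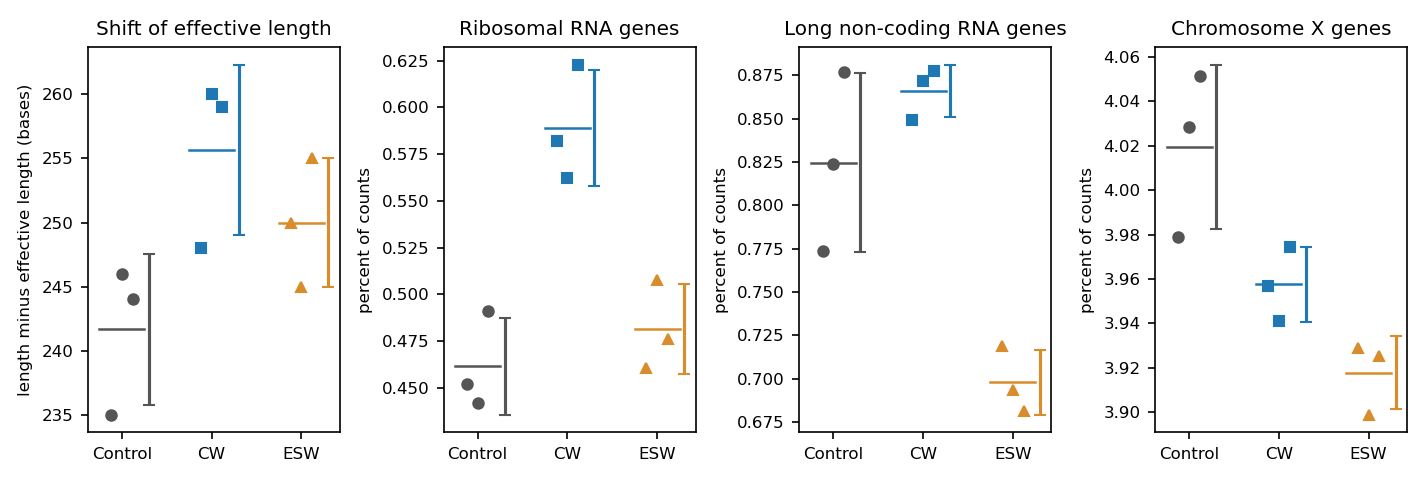
Values of each library in Control (grey), CW (blue) and ESW (orange) for 4 measures. The first is transcript length minus effective length in bases, a median over long transcripts without reads. The others are the percent of counts in ribosomal RNA, lncRNA and chromosome X genes. Points are libraries, horizontal lines are means and error bars SD (n = 3), and the vertical axes do not start at 0; the CW ribosomal RNA shares, 0.562% to 0.623%, lie above all Control and ESW libraries.

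The 22 lower genes are described in order of their known roles, an order set after the calls were known and not tested. Tceal8, Cbfb, H3f3a and Sp3 act in transcription and chromatin. Tceal8, of the transcription elongation factor A-like family, was at 145, 153 and 149 CPM in Control and at 118, 118 and 115 CPM in CW. The groups were far apart relative to their spread, and Tceal8 had the smallest p of the lower genes (log2 fold change -0.35, SE 0.04, adjusted p = 0.0014). Cbfb, the core-binding factor subunit that partners RUNX proteins, was at 98.6, 96.1 and 91.1 CPM in Control and at 80.2, 80.0 and 75.5 CPM in CW (-0.28, adjusted p = 0.0091). H3f3a, which encodes the replacement histone H3.3, was at 520, 536 and 553 CPM in Control and at 439, 431 and 469 CPM in CW (-0.26, adjusted p = 0.0091). Reads of H3f3a can be shared with near-identical copies. Sp3, a zinc finger factor that binds GC boxes, had a log2 fold change of -0.24 (adjusted p = 0.0337). Every CW library lay below every Control library for each of the 4.

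Qki, Mbnl2 and Rbm3 encode RNA-binding proteins. Qki, which regulates splicing and mRNA stability, was at 284, 261 and 255 CPM in Control and at 236, 214 and 222 CPM in CW, a log2 fold change of -0.25 (adjusted p = 0.0236). Mbnl2, a muscleblind splicing regulator, was at 146, 135 and 139 CPM against 125, 119 and 119 CPM in CW (-0.21, adjusted p = 0.0315). Rbm3, an RNA-binding protein induced by cold, was at 384, 390 and 383 CPM in Control and at 335, 337 and 329 CPM in CW (-0.21, adjusted p = 0.0293). Its libraries were tightly grouped. Rbm3 was the single lower gene whose ESW mean did not lie between CW and Control, since the ESW libraries were at 326, 338 and 306 CPM.

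Signalling, cell cycle and ubiquitin genes followed. Cdkn1b encodes p27, an inhibitor of cyclin-dependent kinases, and was at 132, 137 and 142 CPM in Control and at 113, 117 and 119 CPM in CW (log2 fold change -0.23, adjusted p = 0.0236). Yes1, a Src-family tyrosine kinase, was at 57.4, 54.3 and 51.6 CPM against 46.1, 42.1 and 45.7 CPM in CW (-0.29, adjusted p = 0.0236). Mzt1, a small component of the gamma-tubulin ring complex, was at 33.3, 29.6 and 30.1 CPM in Control and at 25.1, 25.2 and 25.3 CPM in CW (-0.30, adjusted p = 0.0395). The groups were apart in each, and the change was small beside the level. The ubiquitin ligase Rnf138 and Spopl, an adaptor of cullin 3 ligases, had log2 fold changes of -0.33 (adjusted p = 0.0400) and -0.28 (adjusted p = 0.0315).

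Other lower genes encode membrane, organelle or lipid-modifying proteins. Lypla1, a thioesterase that removes palmitate from proteins, was at 93.6, 92.1 and 93.4 CPM in Control and at 76.1, 76.8 and 73.8 CPM in CW (log2 fold change -0.30, SE 0.04, adjusted p = 0.0016). Prrg1, a membrane protein with a Gla domain, was at 38.3, 33.4 and 36.0 CPM against 29.4, 24.99 and 26.5 CPM in CW (-0.42, SE 0.06, adjusted p = 0.0062). Fundc1, a mitophagy receptor of the outer mitochondrial membrane, was at 25.1, 24.97 and 24.5 CPM in Control and at 20.6, 18.99 and 18.8 CPM in CW (-0.36, SE 0.06, adjusted p = 0.0222). In all 3 genes the CW libraries were lower without overlap. Tmem47, a protein of cell junctions, had a log2 fold change of -0.28 (adjusted p = 0.0168). The cargo receptor Tmed7, Tmem263 and the lysosomal enzyme Ids, which degrades heparan and dermatan sulfate, had values of -0.22 each (adjusted p = 0.0237, 0.0236 and 0.0443).

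The last 3 lower genes were of other kinds. Sh3bgrl1, a small protein with a thioredoxin-like fold, was at 467, 450 and 426 CPM in Control and at 385, 343 and 355 CPM in CW (log2 fold change -0.31, SE 0.04, adjusted p = 0.0034). Eef1a1l1, a copy of the elongation factor 1-alpha gene, was at 94.6, 84.0 and 81.9 CPM against 73.6, 55.8 and 48.8 CPM in CW (-0.56, adjusted p = 0.0315). It may share reads with Eef1a1. The lncRNA LOC108350029 had 50, 23 and 51 reads in Control and 8, 10 and 5 in CW (-2.08, adjusted p = 0.0395). It was the lower gene with the fewest reads and the largest fold, and leaving out any single library but Control replicate 2 ended its call (adjusted p from 0.0643 to 0.308). Rbm3, Tmed7, Tmem263, Ids, Sp3, Qki, Mbnl2 and Cdkn1b ranked below the naming rule and were named after their values were seen, to account for every call.

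**Figure D3:**
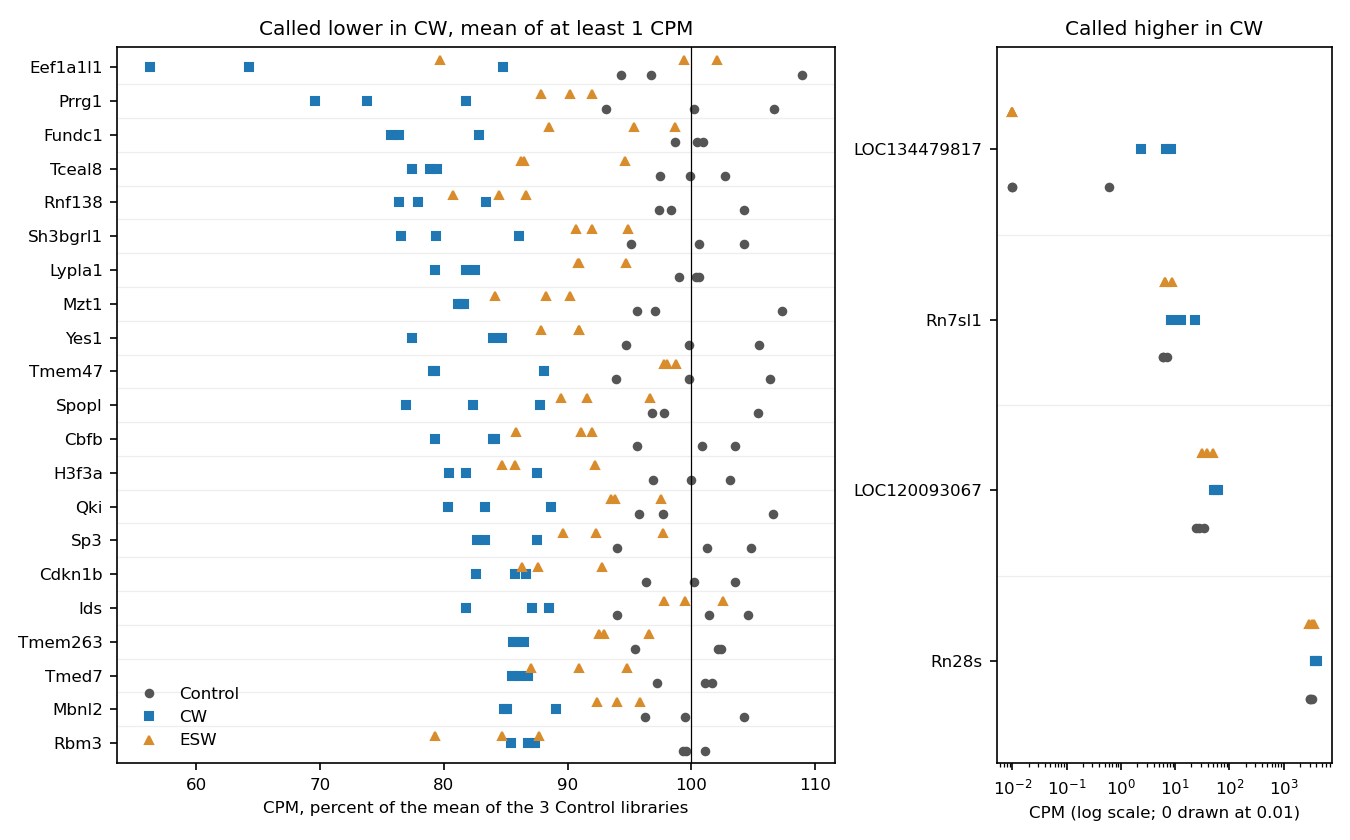
Left: CPM of each Control (grey circles), CW (blue squares) and ESW (orange triangles) library as a percent of the Control mean, for the 21 lower genes that averaged 1 CPM or more. Right: CPM on a log scale for the 4 higher genes, with 0 drawn at 0.01; in both panels every CW library lies outside the range of the Control libraries, and most ESW libraries lie between them on the left.

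All 22 lower genes also had a negative log2 fold change for ESW minus Control, and for 21 of them the ESW mean lay between CW and Control. Both contrasts use the same Control libraries, so the shared sign is a description. By the test against Control, ESW was called in 9 of the 22 (8.04% of all genes tested were called). By the direct test of ESW against CW it was called in 10 (8.14% of all genes tested). The 22 were chosen by their CW and Control values, which these tests reuse. The counts and the middle position of ESW are therefore description too. For Tceal8 the ESW libraries were at 129, 141 and 129 CPM, and for Lypla1 at 88.1, 84.6 and 84.5 CPM, each between the 2 groups. Ids was at 178, 175 and 183 CPM in ESW, within its Control range.

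Chromosome X carried 8 of the 22 lower genes: Tceal8, Sh3bgrl1, Prrg1, Tmem47, Fundc1, Rbm3, Eef1a1l1 and Ids. It holds 513 of the genes tested (3.49%), so 1.56% of its tested genes were called lower against 14 of 14180 on the autosomes. At an unadjusted p under 0.05, 64 X genes were lower (12.5%), against 4.99% on the autosomes and 8.38% on the autosome with the highest such share. The median log2 fold change of X genes was small, -0.024. X genes held 3.98%, 4.03% and 4.05% of reads in Control and 3.96%, 3.94% and 3.97% in CW, without overlap (exact permutation p = 0.1, two-sided, adjusted 0.167). None of the 11 Y genes tested was called.

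Another measure of the libraries moved with the groups and with the calls. Salmon gives each transcript an effective length, its length corrected for the fragments of that library, and the correction can include sequence bias. Length minus effective length was taken over transcripts longer than 2000 bases that had no reads in the library and a whole-number effective length. Its median was 235, 246 and 244 bases in Control and 248, 260 and 259 bases in CW. The groups did not overlap, with means of 242 ± 5.86 and 256 ± 6.66 bases (SD, n = 3 each; exact permutation p = 0.1, two-sided, the smallest possible). A gene's average effective length weighs its transcripts by their estimated abundance in each library, so it also moves with the mix of transcripts. Gene by gene, average effective length in CW minus Control had a median of -0.020 on the log2 scale over all genes and -0.138 over the 22 lower genes, 21 of which were below 0. Prrg1, at -0.34, had the lowest value of these.

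The fold change followed that shift across genes. When genes were divided into 10 groups by it, the median log2 fold change ran from -0.040 in the lowest group to 0.052 in the highest. The lowest group held 17 of the 22 lower calls, and 16.6% of its genes were lower at an unadjusted p under 0.05, against 0.884% in the highest. Across 9017 genes with at least 10 CPM, which are not independent replicates, Pearson's r was 0.37 and Spearman's rho 0.38. Over all genes tested they were 0.042 and 0.174.

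With the effective lengths entered as offsets, edgeR called 1 gene in place of 26. LOC120093067 stayed called, at a log2 fold change of 0.85 (adjusted p = 0.0044). None of the 22 lower genes was called. Tceal8 then had a value of -0.22 (adjusted p = 0.200), Lypla1 -0.11 (adjusted p = 0.677) and Prrg1 -0.09 (adjusted p = 0.838). The values of H3f3a and Sp3 moved less, to -0.21 and -0.20 (adjusted p = 0.296 and 0.429). Those of Eef1a1l1 (-0.56), LOC108350029 (-2.26) and, among the higher genes, Rn7sl1 (1.24) were about as large as before, although the calls were lost (adjusted p = 0.260, 0.200 and 0.200). The correlation across genes with at least 10 CPM became -0.146, and the X chromosome's median became -0.005. The parts of fragment length, sequence bias and transcript mix in the lower calls were not tested further.

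**Figure D4:**
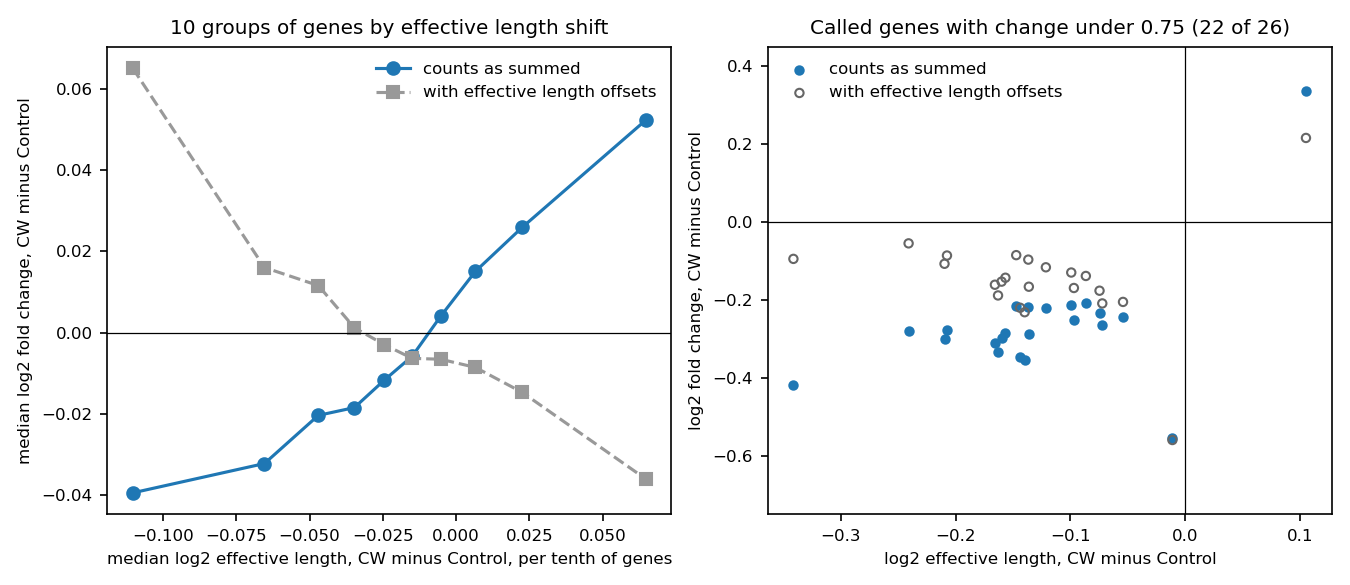
Left: median log2 fold change of CW minus Control in 10 groups of genes ordered by the median shift of log2 effective length (horizontal axis), with counts as summed (blue) and with effective length offsets (grey). Right: the 22 called genes with an absolute log2 fold change under 0.75 against their own shift, as summed (filled) and with offsets (open); the blue line rises from -0.040 to 0.052, and the open circles of most lower genes lie nearer to 0.

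The 5′ flanks of the lower genes are shown as a description, since the list was set by calls that effective length offsets removed. Of the 22, 18 had an entry in the RefSeq promoter table of GRCr8, and the 250 bases upstream of the start had a median GC content of 66.0%, against 58.8% over 12028 tested genes with an entry. The GC box GGGCGG, read on both strands, was present in 14 of 18 (77.8%) against 52.8% of all such windows, CCAAT in 9 of 18 against 35.6%, and TATAAA in 1 of 18 (5.56%) against 7.51%. The windows below, 5′ to 3′ on the gene's strand, belong to the 3 lower genes with the smallest p that had an entry. They lie at chrX:103965001-103965250 (minus strand), chrX:78242454-78242703 (plus strand) and chrX:46493608-46493857 (minus strand). Capitals mark GGGCGG or CCAAT on either strand. Their GC contents were 48.4%, 47.6% and 60.4%, and one of the 3, Tceal8, holds capitals. These matches are letters in a window, with no measurement of binding. The comparison with all windows was not matched for expression level and was not tested.
Tceal8: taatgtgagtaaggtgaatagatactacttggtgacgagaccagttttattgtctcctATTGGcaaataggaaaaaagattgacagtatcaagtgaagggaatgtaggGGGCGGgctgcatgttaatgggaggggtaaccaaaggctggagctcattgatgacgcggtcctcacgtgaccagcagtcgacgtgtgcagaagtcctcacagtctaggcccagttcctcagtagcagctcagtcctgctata
Sh3bgrl1: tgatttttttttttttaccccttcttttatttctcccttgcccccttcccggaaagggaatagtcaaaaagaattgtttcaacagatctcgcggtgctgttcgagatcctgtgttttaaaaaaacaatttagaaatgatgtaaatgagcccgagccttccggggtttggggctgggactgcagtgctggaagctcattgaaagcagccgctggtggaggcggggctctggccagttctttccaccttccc
Prrg1: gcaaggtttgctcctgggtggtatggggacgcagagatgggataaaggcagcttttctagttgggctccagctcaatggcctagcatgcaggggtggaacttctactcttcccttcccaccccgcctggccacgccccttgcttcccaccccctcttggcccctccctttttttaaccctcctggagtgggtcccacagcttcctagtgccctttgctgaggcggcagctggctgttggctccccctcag

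Genes of water and osmotic responses were not called. The list of water channels, osmolyte transporters and osmotic response genes had 23 tested members, a median log2 fold change of 0.015 and 0 calls in either direction. Since 0.177% of all genes tested were called, the lack of calls does not set these members apart. At an unadjusted p under 0.05 by edgeR, 4 members were higher and 1 lower, where all genes tested had 4.62% and 5.25%. Aqp1, a water channel, was at 88.9 CPM in Control and 81.4 CPM in CW (-0.13, adjusted p = 0.323). The stretch-activated channel Piezo1 had a value of 0.12 (adjusted p = 0.353) and Nfat5, the osmotic stress factor, 0.15 (adjusted p = 0.452). The inositol transporter Slc5a3 was at 1.93 against 2.55 CPM, with an interval of -0.10 to 0.86 that leaves its change poorly bounded. Slc6a6, the taurine transporter, was at -0.003, with an interval of -0.10 to 0.09.

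Oxidant defence genes were not called either. Of 25 tested NRF2 targets, genes of antioxidant and iron handling driven by that factor, none was called. Since 0.177% of all genes tested were called, this too does not set the members apart. Their median was 0.043 and 21 were above 0 (49.8% of all genes tested were). At an unadjusted p under 0.05 by edgeR, 4 of them were higher and 1 lower, where all genes tested had 4.62% and 5.25%. Hmox1, heme oxygenase 1, was at 59.9 CPM in Control and 66.8 CPM in CW (0.16, adjusted p = 0.230), and Ftl1, the ferritin light chain, had a value of 0.15 (adjusted p = 0.207). Nqo1, the quinone reductase, had an interval of -0.05 to 0.14. Superoxide dismutases Sod1 and Sod2, catalase (Cat) and the glutathione peroxidase Gpx1 had log2 fold changes of -0.04, 0.002, 0.01 and 0.07. Over a panel of 31 genes of oxidant defence, mitochondria, muscle and stress, 29 were tested, 0 were called, the smallest adjusted p was 0.230 and 27 had intervals within 1.5-fold.

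Over the 42 gene lists, 982 different genes were tested, 0 were higher and 1, Fundc1, was lower. This is 0.102% of the list genes, against 0.177% of all genes tested. List medians ran from -0.062 to 0.071, 15 were above 0, and 923 of the 982 genes had intervals within 1.5-fold. At an unadjusted p under 0.05, 46 were higher and 56 lower (4.68% and 5.70%, near the 4.62% and 5.25% of all genes tested).

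The lists at the upper end held lipid genes. Cholesterol synthesis and uptake had a median of 0.071, with 22 of 24 members above 0 and 7 higher at an unadjusted p under 0.05, where all genes tested had 49.8% and 4.62%. Lss, lanosterol synthase, was at 86.8 CPM in Control and 102 CPM in CW (0.23, adjusted p = 0.111). Fatty acid synthesis had a median of 0.056, with 3 of 13 members higher unadjusted, among them Acly, ATP citrate lyase, at 0.10 and the desaturase Scd at 0.14. No member of either list passed the adjusted threshold.

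The lists at the lower end held proliferation genes. G2/M and mitosis had a median of -0.062, with 21 of 23 members below 0. DNA replication and S phase had a median of -0.050, with 20 of 25 below 0, where 50.2% of all genes tested were. At an unadjusted p under 0.05 by edgeR, 1 member of the first list and 3 of the second were lower, where 5.25% of all genes tested were. Ccne2, cyclin E2, was at 22.9 CPM in Control and 18.5 CPM in CW (-0.31, adjusted p = 0.167), and Mcm7, a helicase subunit, had a value of -0.14 (adjusted p = 0.250). Hmmr and the kinesin Kif11 were at -0.14 and -0.12. In bulk RNA, fewer cells in a phase and less RNA per cell cannot be told apart.

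**Figure D5:**
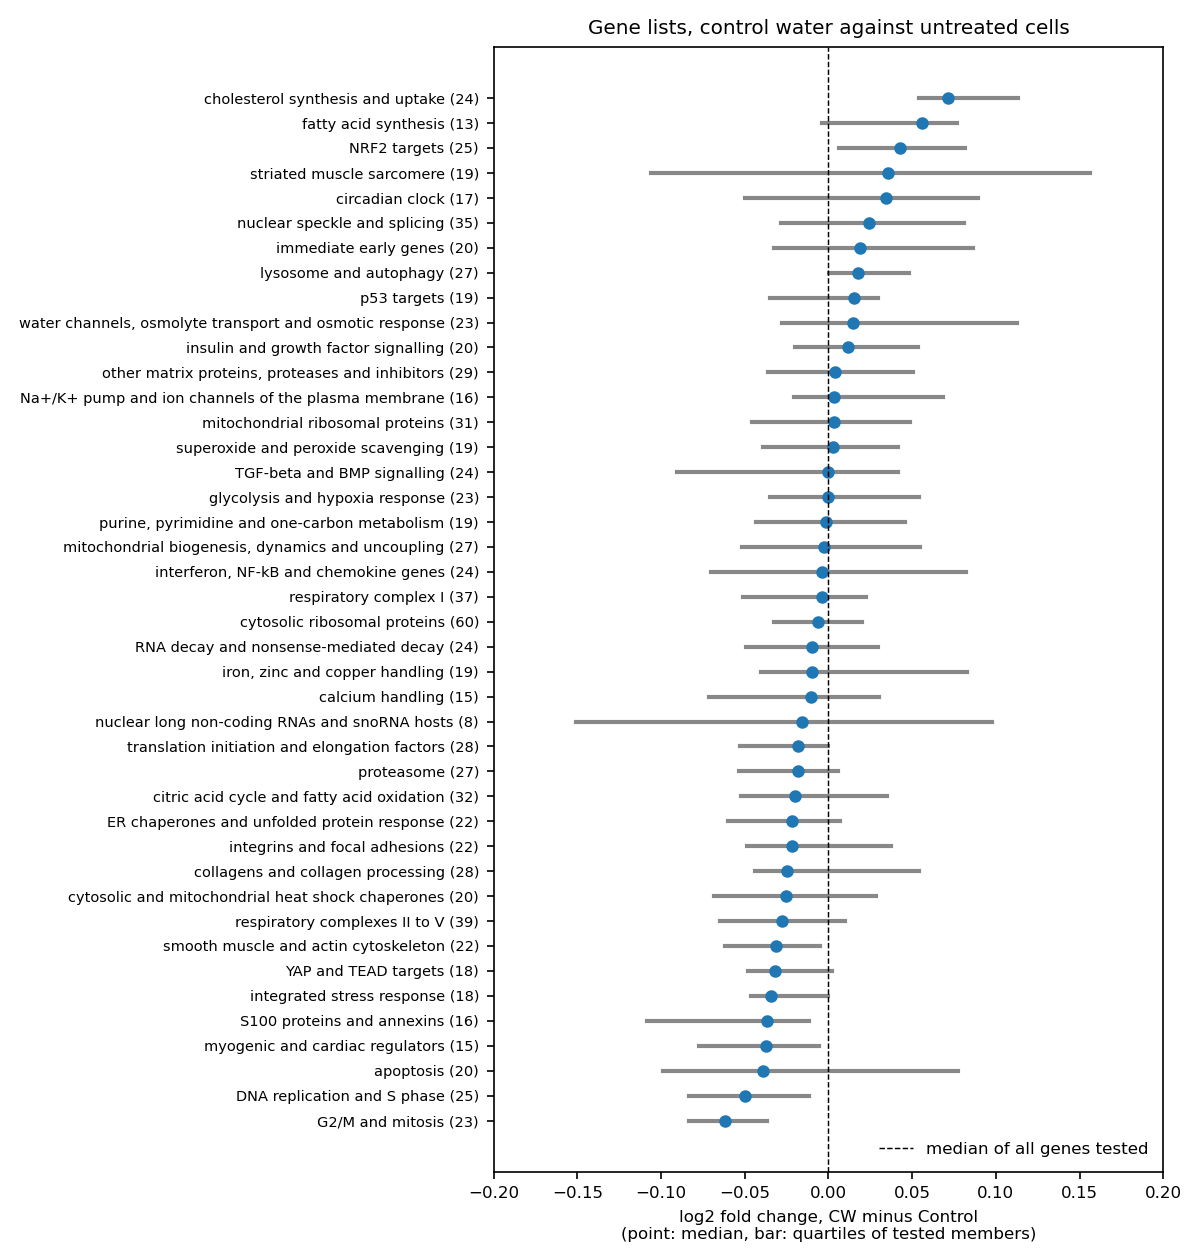
Median log2 fold change of CW minus Control (points) and quartiles (bars) of the tested members of 42 gene lists, with the number tested in brackets. The dashed line is the median of all genes tested; the medians run from -0.062 (G2/M and mitosis) to 0.071 (cholesterol synthesis and uptake).

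Muscle, matrix and signalling genes gave no further calls. Acta2, smooth muscle actin, was at 7930 CPM in Control and 7902 CPM in CW, and Col1a1, a chain of type I collagen, at 31332 and 32486 CPM. Myog, a regulator of muscle differentiation, was at 2.86 against 2.41 CPM, with a wide interval of -0.63 to 0.18. Ttn, titin, was at 0.494 against 1.22 CPM and did not pass (1.30, adjusted p = 0.143). Il1rl1, the interleukin 33 receptor, had the smallest adjusted p of the uncalled list genes, 0.0741, at 65.3 CPM in Control and 56.1 CPM in CW. The BMP receptor Bmpr2 and Inhba, the activin A subunit, had values of -0.21 (adjusted p = 0.114) and -0.24 (adjusted p = 0.124).

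Most mitochondrial and translation genes had intervals within 1.5-fold. Complex I had a median of -0.004 over 37 genes, complexes II to V -0.028 over 39 and cytosolic ribosomal proteins -0.006 over 60. None of these was called, where 0.177% of all genes tested were. Intervals lay within 1.5-fold for 37, 39 and 59 of them, against 90.8% of all genes averaging 1 CPM or more. Mitochondrial biogenesis, dynamics and uncoupling had 25 of 27 within, and its member Fundc1 was called lower. Cycs, cytochrome c, was at 231 CPM in Control and 207 CPM in CW (-0.16, adjusted p = 0.143). Tfam, the mitochondrial transcription factor, had a value of 0.03 with an interval of -0.11 to 0.18, and Atf4, the factor of the integrated stress response, -0.03 with an interval of -0.11 to 0.04.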

How the data were processed

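Per the labels' protocols, RNeasy kit preparations of total RNA were sequenced on an Illumina NovaSeq instrument. Salmon 1.10.3 and DESeq2 (no version) are named in the submitters' processing notes. Each deposited table gives, per the file headers, the estimated count of reads, the TPM (scaled for length and depth by the authors' Salmon run), the length and the effective length in bases of 114122 transcripts. Build, annotation, bias options and strand setting are not given in the sources used here. Of the transcripts with reads in a library, between 9706 and 14085 have a deposited effective length above their length. All transcripts matched the RefSeq table of GRCr8 by accession (36856 genes), which gave names, gene types and chromosomes.

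Estimated counts were summed per gene and rounded. The main test was edgeR 4.0.16 in R 4.3.3 (quasi-likelihood, TMM, filterByExpr), with 9 libraries, 1 mean per group, 6 residual degrees of freedom and a common biological coefficient of variation of 4.84%. P-values were Benjamini-Hochberg adjusted, and genes are called under 0.05. CPM are on TMM-scaled totals, with a prior count of 2 on the log2 scale. The share tests were two-sided exact permutation tests. Alternatives were DESeq2 1.42.0, limma-voom (limma 3.58.1), other scaling and filters, effective length offsets, the 6 libraries alone, a replicate block and each library left out. Named genes were the 12 lower and 12 higher calls with the largest change at a mean of at least 1 CPM, the 10 smallest p, called members of each list or else its 2 smallest p, and a panel, leaving out genes with systematic names. The members, lists and panel were chosen with earlier results of these data known.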

Additional observations from a re-analysis of the deposited data

How the results depend on the processing

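Against 26 calls (4 higher, 22 lower, 3 past an absolute log2 fold change of 1), DESeq2 gave 71 (16, 55 and 0), limma-voom 20 (2, 18 and 0), no filter on low counts 273 (115, 158 and 37), effective length offsets 1 (1, 0 and 0) and the 6 libraries alone 16 (4, 12 and 1). Offsets with the 6 libraries alone, chosen after seeing the data, gave 2 (2, 0 and 1). Leaving out 1 library at a time gave 5 to 51 calls, 2 to 16 higher, 3 to 35 lower and 1 to 8 past the fold. Where a group was left with 2 libraries, the spread was shared with the other groups. The causes were not tested. No called gene changed sign under the 19 alternatives, and 15 named genes that were not called passed under at least 1, such as Lss and Il1rl1 by DESeq2 (adjusted p = 0.0146 and 0.0162). The difference in the pseudogene share, -0.0027 percentage points, ran from -0.0078 to 0.0032 without single libraries.

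The labels give the groups the same replicate numbers without saying what they mark. Deviations of same-numbered CW and Control libraries correlated at 0.164, 0.078 and 0.046, so the numbers were not taken as pairs, although every CW library correlated best with its own number. With the replicate block and all 9 libraries there were 25 calls (5 higher, 20 lower). With the replicate block and the 6 libraries alone there were 175 calls (76 higher, 99 lower, 5 past the fold), which included all 26.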
